A study of Homo sapiens and Mus musculus with 12 samples.

Results

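AGR2 and AGR3 are neighbouring genes of chromosome band 7p21.1 that encode small proteins of the protein disulfide isomerase family, which help secreted proteins to fold in the endoplasmic reticulum. The peaks described here are those that the deposited lists place in a fixed window around the genes. The window was chromosome 7 from 16700 to 17100 kb of build hg19, and around mouse Agr2 it was chromosome 12 from 35850 to 36150 kb of build mm10. It held 13 of the 19164 peaks of the series: 2 of 2775 HA-SPDEF peaks, 10 of 10670 GATA6 peaks and 1 of 5719 mouse HA-Spdef peaks.

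All libraries were CUT&RUN, in which an antibody directs a nuclease to chromatin and the released fragments are sequenced. The human cells were HPAF-II, an established pancreatic ductal adenocarcinoma (PDA) line carrying HA-tagged human SPDEF, with 3 libraries against the HA tag, 3 against GATA6, 1 against H3K4me3 and 1 IgG control. The mouse cells were FC1245, a PDA line of strain C57/Bl6 and genotype KrasLSLG12D/+; Trp53LSLR172H/+; Pdx1-Cre that carries mouse Spdef with an HA tag; 3 of its libraries used the HA antibody and 1 was an IgG control. The labels name no cells without the tagged factor and a single line of each species, so the GATA6 peaks too were mapped in cells carrying tagged SPDEF. SPDEF, GATA6 and mouse Spdef each have 1 list of peak positions with no score, height or replicate value, and its sequencing depth is unknown. A peak's width was therefore its only measure of size, and no value could be set against the spread between libraries.

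SPDEF is a transcription factor of the ETS family that drives the maturation of mucus-secreting goblet cells. GATA6 is a zinc-finger factor of endoderm and a marker of the classical PDA subtype. AGR2 is needed for mucin production in the mouse intestine, and AGR2 and AGR3 both belong to the genes used to define classical PDA. ETS factors recognise a core of GGAA or GGAT, and GATA factors a core of GATA.

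At the 5′ end of AGR2 the peaks of both factors coincided. The HA-SPDEF list held a pair of peaks there, at chromosome 7, 16844259 to 16844560 (302 bp) and 16844619 to 16844897 (279 bp), 58 bp apart. A single GATA6 peak of 1076 bp, at 16844223 to 16845298, covered both of them completely. The first SPDEF peak began 36 bp after the start of the GATA6 peak, and the second ended 401 bp before its end. Together the SPDEF peaks took up 54.0% of the GATA6 peak.

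AGR2 lies on the minus strand, so its first exon is at its upper limit, taken here as 16845 kb. The gene limits are known only to the kb. The SPDEF peaks ended 0.44 and 0.10 kb inside this limit, both within the span assigned to the gene, and the GATA6 peak crossed it by 298 bp. Whether either SPDEF peak lies before, over or after the first transcribed base cannot be read at this resolution. Both SPDEF peaks were of ordinary width, at the 59.1 and 53.2 percentiles of their list. The GATA6 peak ranked 781 from the widest of its list, at the 92.7 percentile.

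**Figure D1:**
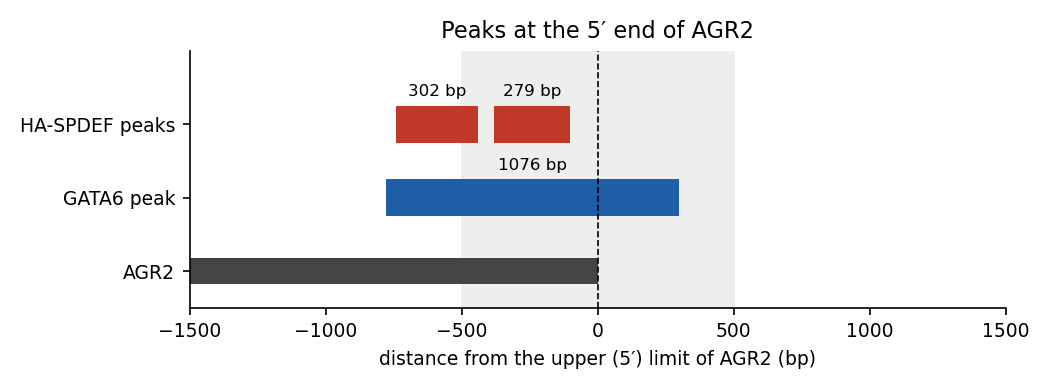
Peaks at the 5′ end of AGR2 in HPAF-II cells. The x axis is the distance in bp from the upper limit of the gene, negative inside the gene; bars are peaks with their widths, the dark bar is AGR2, and the grey band is the uncertainty of a limit given to the kb. The 2 HA-SPDEF peaks of 302 and 279 bp lie side by side under 1 GATA6 peak of 1076 bp that crosses the limit.

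Because the peaks of both factors fall at this end of the gene, the reference promoters of AGR2 and AGR3 are shown for comparison, from 250 bases before to 50 after the start of the gene. They come from RefSeq in build GRCh38.p14, which is not the build of the peaks, so positions in the peaks cannot be transferred to them. Capitals mark GGAA, GGAT and AGATAA and their reverse complements.
AGR2, GRCh38.p14, chr7:16804950-16805249, minus strand: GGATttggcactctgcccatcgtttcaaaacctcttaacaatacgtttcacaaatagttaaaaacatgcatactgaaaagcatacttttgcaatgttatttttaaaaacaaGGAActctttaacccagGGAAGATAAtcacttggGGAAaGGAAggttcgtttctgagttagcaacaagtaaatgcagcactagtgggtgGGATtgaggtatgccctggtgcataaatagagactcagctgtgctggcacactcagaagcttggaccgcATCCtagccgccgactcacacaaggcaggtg
AGR3, GRCh38.p14, chr7:16881934-16882233, minus strand: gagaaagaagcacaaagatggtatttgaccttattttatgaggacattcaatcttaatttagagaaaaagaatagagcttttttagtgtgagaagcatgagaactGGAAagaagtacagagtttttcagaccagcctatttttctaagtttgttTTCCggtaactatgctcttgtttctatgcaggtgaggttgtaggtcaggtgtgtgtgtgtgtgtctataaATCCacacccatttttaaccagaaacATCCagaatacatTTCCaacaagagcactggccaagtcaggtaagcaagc

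Positions count from 1 at the first transcribed base, upstream bases are negative, and each is that of the leftmost base as printed. The AGR2 promoter held 4 GGAA cores, at -139, -122, -105 and -100, all on the strand of the gene. It also held 3 GGAT cores, at -250 and -50 on that strand and at 20 on the other. Its 1 AGATAA match began at -119 and shared 1 base with the GGAA at -122. The AGR3 promoter held 3 GGAA cores, at -145 on the gene's strand and at -96 and 14 on the other, and 2 GGAT cores on the other strand, at -26 and 1. No AGATAA lay in the AGR3 window and no TGATAA in either.

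These letters are common, and a match is not a site. Searched on both strands over 35116 promoters of 300 bases, GGAA occurred in 95.45%, GGAT in 76.5%, AGATAA in 10.3% and TGATAA in 7.53%. As many GGAA cores as in AGR2, or more, were in 46.0% of promoters, and as many GGAT cores in 22.8%. The longer core CCGGAA, added after the sequences were seen, matched at -96 on the other strand of AGR3 and in 17.25% of promoters. CCGGAT, added likewise, matched in neither gene and in 7.12% of promoters.

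A pair of SPDEF peaks under 1 GATA6 peak was an uncommon arrangement in these lists. Of 10670 GATA6 peaks, 102 (0.956%) overlapped at least 2 SPDEF peaks, and 1717 overlapped at least 1. The 102 were 5.94% of those 1717. Among 2750 pairs of consecutive SPDEF peaks on a chromosome, 20 (0.727%) were no farther apart than the 58 bp at AGR2. The arrangement and the 58 bp were taken from this locus, so these shares describe it and are no test. With no score or signal track, a pair of peaks and 1 region split by the peak caller cannot be told apart.

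AGR3 lies above AGR2, with 54 kb between the spans taken for them, and it had no SPDEF peak of its own. The nearest SPDEF peak was the AGR2 pair, 54.1 kb from the lower limit of AGR3 and 77.1 kb from its upper, 5′ limit. On the other side the next SPDEF peak began at 17598345, 753.4 kb beyond the pair and 498.3 kb past the end of the window. Below the pair no SPDEF peak occurred for 3787.2 kb. Over 4.54 Mb of chromosome 7 the list thus held no other SPDEF peak.

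No GATA6 peak lay within the AGR3 span of 16899 to 16922 kb either. The nearest were at 16931278 to 16931632 (355 bp), 9.28 kb beyond the 5′ limit, and at 16887149 to 16887529 (381 bp), 11.47 kb below the other end. RefSeq in GRCh38.p14 gives AGR3 a span of 27.3 kb against the 23 kb used here, a difference of 4.3 kb that neither distance falls within. For AGR2 RefSeq gives 13.2 kb against the 14 kb used here, a difference of -0.8 kb. In size it exceeds the 0.44 and 0.10 kb by which the SPDEF peaks lay inside the upper limit. It also exceeds the 298 bp by which the GATA6 peak crossed that limit, so these placements are not settled.

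The other GATA6 peaks were spread on 1 side of AGR2. Between the genes lay 2, the 1 at 16887149 and a narrow peak of 141 bp at 16850165 to 16850305, 5.16 kb upstream of AGR2. Above AGR3 lay 7, over 178 kb. The 131 kb from the lower end of the window to AGR2 held none, and the gap in the GATA6 list on that side was 194.6 kb, from a peak of 190 bp at 16649396 to 16649585. In the reference gene order TSPAN13, a tetraspanin gene, is the next protein-coding gene below AGR2, and AHR, which encodes the aryl hydrocarbon receptor, the next above AGR3.

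**Figure D2:**
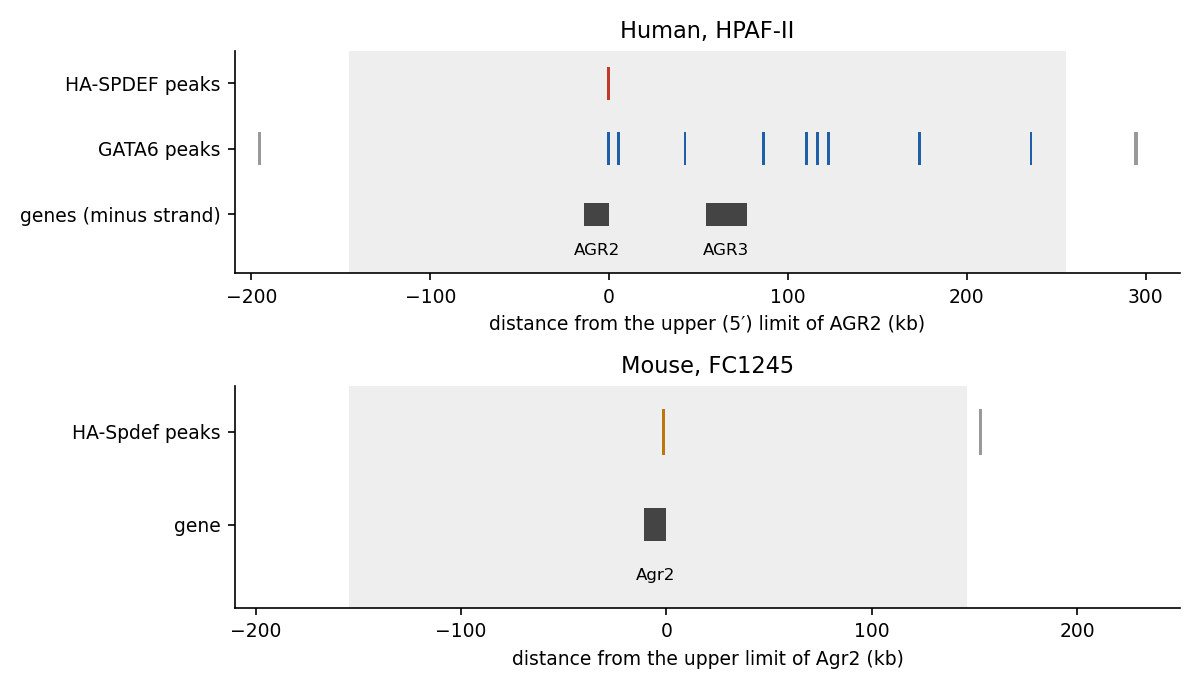
Peaks around the human genes (upper panel) and mouse Agr2 (lower panel). The x axis is the distance in kb from the upper limit of AGR2 or Agr2; grey areas are the windows, coloured ticks the peaks in them, grey ticks peaks just outside that fall on the panel, and ticks are drawn at least 1.5 kb wide, so that close peaks merge. The 10 GATA6 peaks begin at AGR2 and extend to one side over 236 kb, and the SPDEF pair stands as 1 tick at 0.

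Among the 7 GATA6 peaks above AGR3, 4 formed a group within 13.0 kb. It began with the second widest GATA6 peak of the window, of 826 bp, at 16954659 to 16955484, followed 29 bp on by 1 of 302 bp at 16955514 to 16955815. Peaks of 216 bp at 16961455 to 16961670 and of 155 bp at 16967476 to 16967630 came next. The peaks of 826 and 302 bp, 29 bp apart, cannot be told from 1 region split by the peak caller. The count of 4 in the group, and that of the window, depend on this. The group started 32.66 kb beyond the 5′ limit of AGR3 and 109.66 kb beyond that of AGR2. When near GATA6 peaks were stitched into clusters, which joined gaps of up to 5.8 kb in the window and left those from 23.0 kb, 3.18% of the 7682 clusters held at least 4 peaks. The last peaks of the window were of 197 bp at 17018250 to 17018446 and of 339 bp at 17080694 to 17081032. None of these 7 peaks overlapped an SPDEF peak, where 16.1% of all GATA6 peaks did, and the closest of them was 86.38 kb from one.

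The GATA6 peaks of the window were near the whole list in width. Their widths ran from 141 to 1076 bp with a median of 320.5 bp, against a median of 447 bp in the rest of 7p21.1 and 346 bp in the whole list. Wider than the list median were 4 of 10 in the window and 27 of 37 in the rest of the band. The only window peak of at least 1000 bp was that at AGR2, against 11 in the rest of the band and 9.16% of the whole list. Widths were not tested between these sets.

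**Figure D3:**
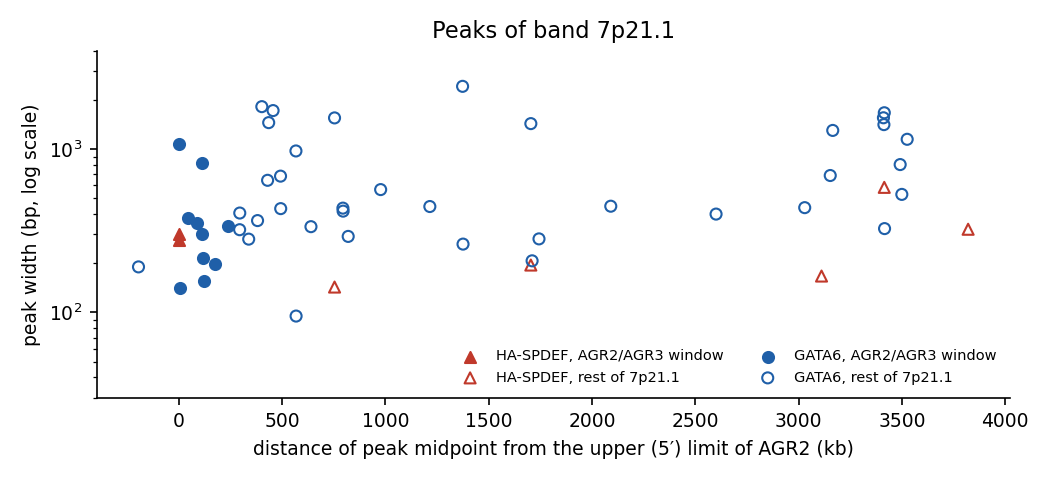
Width in bp (log scale) of every HA-SPDEF and GATA6 peak of band 7p21.1 by its distance in kb from the upper limit of AGR2. Filled symbols are peaks of the window, open symbols the rest of the band. The GATA6 peak at AGR2 (1076 bp) is the widest filled symbol, and 11 open GATA6 symbols lie at or above 1000 bp.

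The overlap of the lists in the window rested on the AGR2 end alone. Both SPDEF peaks (100%, 95% Wilson interval 34.2 to 100) but 1 of 10 GATA6 peaks (10.0%, 1.79 to 40.4) had a partner. In the rest of 7p21.1, 3 of 5 SPDEF peaks (60.0%, 23.1 to 88.2) and 3 of 37 GATA6 peaks (8.11%, 2.80 to 21.3) did. Over the whole lists the shares were 64.7% of SPDEF peaks and 16.1% of GATA6 peaks, both inside the intervals of the window. The partners in the rest of the band were wide GATA6 peaks, of 1552 bp around the SPDEF peak at 17598345 to 17598487, of 1432 bp around that at 18548367 to 18548561 and of 1669 bp around that at 20258941 to 20259523. The SPDEF peaks at 19955487 to 19955653 and 20664972 to 20665294 had none, their nearest GATA6 peaks being 41.78 and 294.23 kb away. Intervals cover counting error only, and those of window and band overlap widely. Both SPDEF peaks of the window lie under the same GATA6 peak. Their interval takes them as independent and is therefore too narrow.

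GATA6 peaks were dense around the genes. The window held 25.0 GATA6 peaks per Mb (95% Poisson interval 12.0 to 46.0), against 9.25 (6.51 to 12.75) in the rest of 7p21.1 and 3.51 (3.45 to 3.58) over the autosomes and X. The ratio of window to rest of band was 2.70 (exact 95% interval 1.20 to 5.54), and 1.48 with the wider 50% of the list, 4 peaks against 27. Set against the whole list, 10 peaks stood against 1.405 expected by length, a ratio of 7.12 (3.41 to 13.1). The exact Poisson test over 7611 windows of 400 kb gave p = 2.318e-06 and, with Benjamini-Hochberg adjustment, an adjusted p of 0.0001764. Of those windows 4.15% passed the threshold of 0.05, and 100 held as many GATA6 peaks or more. Its p-values are too small, since clustered peaks were counted as if independent. Stitching near peaks left 6 clusters against 1.01 expected, and the window passed narrowly (exact Poisson test, adjusted p = 0.0484). The window was also chosen with earlier results of these data known, so its p is not that of a window fixed in advance. With the wider 50% of the list, 4 peaks stood against 0.704 expected and the window did not pass (adjusted p = 0.121 by the exact Poisson test).

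The density did not peak at these genes. The 400 kb just above, from 17100 to 17500 kb, held 13 GATA6 peaks (exact Poisson test, adjusted p = 9.22e-07) and 0 SPDEF peaks. It and the AGR2 and AGR3 window were the 2 of 10 full steps of 7p21.1 that passed. The other 9 steps held 1 to 13 GATA6 peaks, with a median of 3.

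SPDEF peaks in the window were too few for such a call. The 2 peaks gave 5.00 per Mb (0.6055 to 18.1), against 1.25 (0.406 to 2.92) in the rest of 7p21.1, at a ratio of 4.0 (0.381 to 24.4), and 10.0 with the wider 50% of the list, 2 peaks against 2. Against the whole list they stood beside 0.365 expected, a ratio of 5.48 (0.664 to 19.8; exact Poisson test, p = 0.0524, adjusted p = 0.662). These values count the 2 close peaks of the AGR2 pair as independent. With near peaks stitched the pair counted as 1, against 0.288 expected, a ratio of 3.48, and the window did not pass. Windows with at least 2 SPDEF peaks made up 7.91% of all windows, and the 1.80% that passed the threshold held 4 or more. A window with 10 or more GATA6 peaks held a median of 3 SPDEF peaks. At least 2 were found in 72 of 100 such windows, the one described here included, and 0 in 14.

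**Figure D4:**
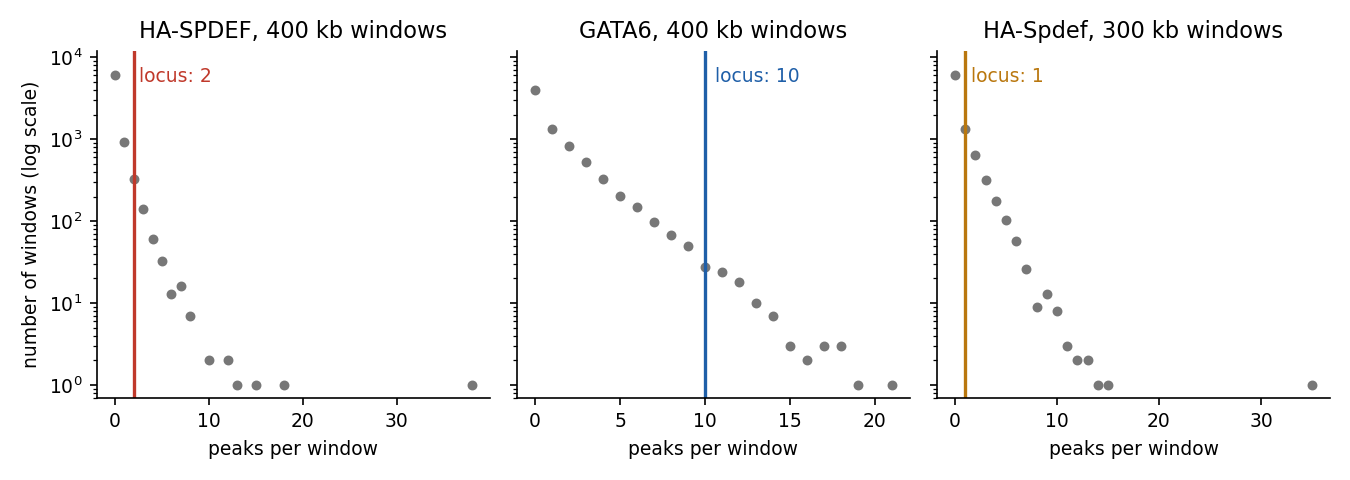
Number of windows (log scale) by the number of peaks in them, over all windows of the autosomes and X, for HA-SPDEF, GATA6 and mouse HA-Spdef. Coloured lines mark the windows described here, with 2, 10 and 1 peaks; the GATA6 line lies in the tail, where 100 of 7611 windows hold 10 peaks or more.

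**Figure D5:**
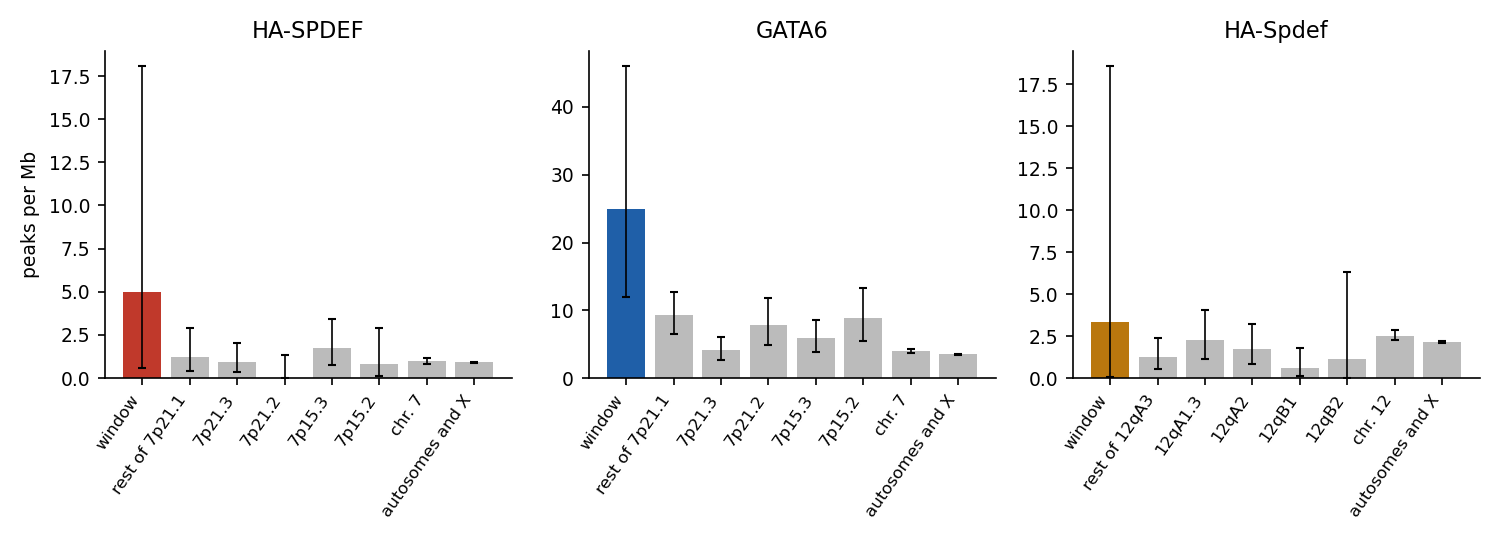
Peaks per Mb in the windows, the rest of their bands, the bands on each side, the chromosome, and the autosomes and X, with exact 95% Poisson intervals. The GATA6 window, at 25.0 per Mb, is the tallest bar of its panel, and its lower bound of 12.0 lies above the upper bounds of chromosome 7 and of the autosomes and X, 4.28 and 3.58. That lower bound lies below the upper bounds of the rest of 7p21.1 and of 7p15.2, 12.75 and 13.32. The intervals of the SPDEF and mouse windows overlap those of all regions drawn beside them.

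In mouse FC1245 cells 1 HA-Spdef peak fell in the window and it lay within Agr2. The peak, at chromosome 12, 36002258 to 36002943 (686 bp), was 9.26 kb from the lower limit of the gene, about 35993 kb, and 1.06 kb from the upper, about 36004 kb. No source used here gives the strand of mouse Agr2, so the peak is not assigned to either end. Its width was at the 72.1 percentile of the mouse list, whose median was 437 bp. It stood alone, with the next peaks at 35672087 to 35672296 (210 bp), 330.0 kb below, and at 36156837 to 36157003 (167 bp), 153.9 kb above and 6.8 kb outside the window.

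The mouse window held 3.33 peaks per Mb (0.0844 to 18.6), against 1.25 (0.573 to 2.38) in the rest of band 12qA3 and 2.17 (2.115 to 2.23) over the autosomes and X. Its count of 1 against 0.651 expected gave a ratio of 1.54 (0.0389 to 8.56; exact Poisson test, adjusted p = 1.0), and 30.5% of 8798 windows of 300 kb held at least 1 peak. Windows past the threshold made up 2.56%. The series has no GATA6 library of mouse cells, and the position of mouse Agr3 was not analysed here. The human and mouse lists were each called in their own cells, and no difference between them was tested.

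Other members of the protein disulfide isomerase family could be followed only by band, which holds many genes and says nothing about a single one. The 20 genes of the list, AGR2 and AGR3 among them, lie in 19 bands. GATA6 peaks passed the exact Poisson test in 5 of these bands (26.3%), against 16.8% of all 862 bands. The 5 include 7p21.1, the band of the peaks described here, so the share rests in part on this locus. The 4 that passed besides 7p21.1 were 20p12.3 with TMX4 (35 peaks, ratio 2.48), 11q12.1 with TMX2 (31 peaks, 2.14), 5q31.1 with TXNDC15 (41 peaks, 2.12) and 14q22.1 with TMX1 (23 peaks, 2.085). TMX1, TMX2 and TMX4 are membrane-bound thioredoxin-related proteins. The band of TXNDC12, the third member of the AGR family, held 15 GATA6 peaks (ratio 0.806) and 3 SPDEF peaks (0.620), and neither passed. That of P4HB, the archetypal protein disulfide isomerase, held 14 and 1 peaks, at ratios of 0.689 and 0.189. The median ratio over the 19 bands was 0.967 for GATA6 and 1.05 for SPDEF, against 0.829 and 0.485 over all bands. Counted per protein-coding gene, the medians were 0.939 for GATA6 and 0.722 for SPDEF, against 1.02 and 0.586 over all bands, so that for GATA6 the order turned round.

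For SPDEF, 2 of the 19 bands passed (10.5%), against 9.51% of all bands: 5q31.1 with TXNDC15 (21 peaks, ratio 4.185) and 16p13.3 with PDIA2, a pancreatic member of the family (16 peaks, 2.26). No SPDEF peak lay in 5 of the bands. Counted per protein-coding gene, 1 band passed for SPDEF, 5q31.1, against 7.77% of all bands, and 3 for GATA6, 20p12.3, 7p21.1 and 14q22.1, against 23.5%. Without 7p21.1, 2 passed for GATA6. Of the bands that no longer passed, 16p13.3 had an SPDEF ratio of 0.572 per protein-coding gene. For GATA6, 11q12.1 had a ratio of 0.5545 and 5q31.1 of 1.305.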

How the data were processed

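The submitters' processing notes name builds hg19 and mm10 and the tools MACS2 2.2.7.1, Bowtie2 2.4.4, SAMtools 1.14 and deepTools. What each tool did, which control and threshold were used and whether replicates were pooled was not given. The deposited files hold the chromosome, start and end of each peak, and were assigned to targets by name. No human peak (0 in each list) ran past the end of its hg19 chromosome. Positions are printed counting from 1.

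Window and gene limits are in kb, and strands come from RefSeq in GRCh38.p14. Overlap means at least 1 bp shared; distances run from peak edges. Windows as long as the one described were tiled over the autosomes and X, with peaks counted by midpoint. Bands came from circlize 0.4.16 in R 4.3.3, and genes were tied to bands by GRCh38 position and band name. Other steps used Python 3.11.15 with matplotlib 3.10.9, pandas 2.3.3, scipy 1.17.1 and numpy 2.4.6. The window test was run on simulated peaks placed independently along the genome. Real peaks cluster, so that run cannot show whether the p-values are right here. Every peak of the windows is named, with the nearest outside. The genes, windows and lists were chosen with earlier results of these data known. The IgG and H3K4me3 libraries had no peak list among those read here and were not used.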

Additional observations from a re-analysis of the deposited data

How the results depend on the processing

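No paired analysis was possible because a single list of positions stands for the 3 libraries of a target, and no library could be left out. With the wider 50% of the list the GATA6 window ratio was 5.68 and did not pass (adjusted p = 0.121 by the exact Poisson test), where 4 of the 10 peaks were kept. It passed in the other alternatives run, at ratios from 5.93 with near peaks stitched (exact Poisson test, adjusted p = 0.0484) to 11.4 in a window of 200 kb (adjusted p = 0.0001211). The SPDEF window ratio lay between 2.74 in a window of 800 kb and 11.0 in a window of 200 kb, and the mouse ratio between 1.31 and 3.07; neither passed under any alternative. The overlap shares of the window were the same under the 4 alternatives run, none of which could change them. The GATA6 peak at AGR2 covers both SPDEF peaks, and the next GATA6 peak is 5.27 kb from them. No GATA6 peak of the window is narrower than 141 bp. The shares of the rest of the band were not recomputed. The ratio of window to rest of band for GATA6 was 1.48 with the wider 50% and 3.09 against 5 Mb on each side. For SPDEF it was 10.0 and 5.56 in place of 4.0, and for mouse Spdef 7.98 and 1.96 in place of 2.66. Per protein-coding gene, protein disulfide isomerase family bands past the threshold numbered 1 in place of 2 for SPDEF and 3 in place of 5 for GATA6. The limits are unknown depth, no replicate values, and gene limits known to the kb.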

Other observations

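The next 400 kb above the AGR2 and AGR3 window, on the side of AHR, held wider GATA6 peaks. The 13 GATA6 peaks from 17100 to 17500 kb were 432 bp wide at the median and those of the window 320.5 bp, a difference that was not tested. Of them 3 were at least 1000 bp wide, at 17245488 to 17247306 (1819 bp), 17278910 to 17280361 (1452 bp) and 17300004 to 17301724 (1721 bp). None of the 13 overlapped an SPDEF peak, and the nearest SPDEF peak was at least 113.93 kb away. The 400 kb lie in the stretch of 753.4 kb beyond the AGR2 pair without an SPDEF peak, so no overlap was possible. Over the whole list 16.1% of GATA6 peaks overlapped an SPDEF peak. These peaks were picked out after their values were seen.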
